A study of Mus musculus with 3 samples.

Results

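Germ cell genes were examined in R1 mouse embryonic stem (ES) cells. The set comprised 10 genes of germ cell specification and meiosis, Prdm1, Tfap2c, Nanos3, Dppa3, Dnd1, Ddx4, Dazl, Mael, Sycp3 and Taf7l, and every probe set that the platform annotation pairs with one of them. The annotation gave 12 such probe sets for 9 of the 10 genes, of 45101 probe sets and 18193 genes in all. No probe set of these germ cell genes was also paired with another gene. Nanos3 was paired with none and its expression was not analysed here. R1 is an established line of pluripotent cells, and the cells of all 3 samples were undifferentiated. The samples were cells left untreated, cells exposed for 4 h to 20 ng/ml BMP4 and cells exposed for 4 h to 100 ng/ml of the BMP antagonist noggin, with 1 Affymetrix array of total RNA each. No genetic alteration was named in the labels, and none gave a time for the untreated cells.

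In the mouse embryo, germ cells arise from the epiblast under the influence of BMP signals from neighbouring extraembryonic tissue. Those signals lead to expression of Prdm1 and Prdm14, and Tfap2c acts with them to establish primordial germ cells, the precursors of eggs and sperm. Later germ cell genes serve RNA regulation, transposon silencing and meiosis. Many of these are methylated and silent in somatic cells but are held at a low or moderate level in ES cells, where a Polycomb complex that contains Mga, Max and E2f6 represses them. Mga with Max binds the E-box CACGTG, and E2f6 binds sites of the E2F family.

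Promoter windows were available for 7 of the 10 genes from RefSeq (build GRCm38.p6). The 250 bases before the transcription start were searched on both strands for the E-box CACGTG, which is its own reverse complement, and for the E2F core TCCCGC, which reads GCGGGA on the opposite strand. The motifs can share an end letter, and 0 of their matches in the members' windows overlapped. The windows of Taf7l, Sycp3 and Mael are printed because these genes had lower values on the BMP4 array, that of Dazl because its 2 probe sets differed, and that of Ddx4 as a gene whose value barely differed between arrays. Each runs 5′ to 3′ on the strand of the gene, with both motifs in capitals.
Taf7l, chrX:134476491-134476740, minus strand: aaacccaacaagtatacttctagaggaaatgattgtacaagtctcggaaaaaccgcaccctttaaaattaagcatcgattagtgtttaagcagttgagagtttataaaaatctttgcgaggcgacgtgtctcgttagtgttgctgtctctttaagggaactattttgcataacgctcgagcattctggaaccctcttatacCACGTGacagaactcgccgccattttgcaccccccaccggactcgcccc
Dazl, chr17:50293621-50293870, minus strand: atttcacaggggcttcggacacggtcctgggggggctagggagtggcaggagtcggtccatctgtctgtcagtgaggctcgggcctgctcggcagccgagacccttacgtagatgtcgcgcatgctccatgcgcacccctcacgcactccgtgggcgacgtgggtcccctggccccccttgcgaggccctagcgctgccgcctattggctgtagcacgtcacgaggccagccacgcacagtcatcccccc
Sycp3, chr10:88459337-88459586, plus strand: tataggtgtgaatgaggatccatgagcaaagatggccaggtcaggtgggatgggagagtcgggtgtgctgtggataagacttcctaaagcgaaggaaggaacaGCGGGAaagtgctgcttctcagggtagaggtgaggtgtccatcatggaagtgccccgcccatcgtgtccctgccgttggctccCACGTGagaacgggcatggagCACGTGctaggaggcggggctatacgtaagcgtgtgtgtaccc
Mael, chr1:166238745-166238994, minus strand: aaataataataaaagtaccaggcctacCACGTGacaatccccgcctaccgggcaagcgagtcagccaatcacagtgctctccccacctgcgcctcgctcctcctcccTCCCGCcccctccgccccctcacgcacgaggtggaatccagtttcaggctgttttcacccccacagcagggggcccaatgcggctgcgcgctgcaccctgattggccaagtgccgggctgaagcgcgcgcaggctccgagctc
Ddx4, chr13:112652311-112652560, minus strand: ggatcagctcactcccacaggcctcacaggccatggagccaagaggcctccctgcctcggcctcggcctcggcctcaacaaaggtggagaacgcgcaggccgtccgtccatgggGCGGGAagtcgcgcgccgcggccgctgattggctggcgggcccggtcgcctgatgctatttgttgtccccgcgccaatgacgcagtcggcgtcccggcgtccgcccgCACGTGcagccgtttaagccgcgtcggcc

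CACGTG was found in 4 of the 7 windows, those of Taf7l, Sycp3, Mael and Ddx4, with 2 matches in Sycp3. Of all 32851 windows of that length in the table, 6.02% held it. The members' windows had a median of 15 CpG pairs, against 16 in the windows of all genes measured above the median of all array values and 6 over all windows. Of the windows of those genes above the median, 8.50% held CACGTG. Among the 11003 windows with at least 12 CpG pairs, the number in Sycp3, which had the fewest of the 4, 9.76% held CACGTG. The match began 49 bases before the start in Taf7l, 64 and 43 bases in Sycp3, 29 bases in Ddx4 and 223 bases in Mael. TCCCGC was found in the windows of Sycp3, Mael and Ddx4, against 16.9% of all windows and 39.7% of those with at least 12 CpG pairs. The windows of Dazl, Prdm1 and Nanos3 held neither motif. A match of letters is a description of the sequence, not evidence of binding, and the absence of one says only that these letters are not in the window.

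With 1 array per condition there is no replicate error, and no test was made. Values are log2 RMA values, so 1 unit is a factor of 2. The probe set with the highest mean stood for its gene, which counted as above the floor where its highest value exceeded 3.44, the median of all values; 11594 genes did. A pair of measures of technical spread bear on all that follows. Probe sets of the same gene had differences with a within-gene SD of 0.13 between BMP4 and untreated and 0.11 between noggin and untreated. This SD compares probe sets on the same arrays, so it does not hold the variation between cultures or RNA preparations. The poly-A spikes, bacterial transcripts put into the samples ahead of labelling, have 24 probe sets. On the BMP4 array 24 of these lay below their untreated value, at a median of −0.63, and on the noggin array 23 did, at a median of −0.18; the part of this shift in the differences given here was not tested. All 10 pluripotency markers were above the floor, with median values of 10.63, 10.77 and 10.60 on the untreated, BMP4 and noggin arrays. Of 11 fibroblast markers, looked at because ES cells can be grown on feeder cells, 8 were above the floor. The summed linear values of all 11 were 242, 226 and 240 in the same order. Col1a1, Col3a1 and Lum were below the floor. Acta2 was the highest, at 6.25 on each array, and Pdgfrb, Dcn and Twist1 also had equal values on all arrays. S100a4 measured 4.93, 4.37 and 4.62, and Thy1 4.91, 4.93 and 5.09. Postn measured 3.32, 3.00 and 3.55, near the floor, and Col1a2 4.18, 4.02 and 4.18. Of 11 markers of differentiated lineages, 6 were above the floor, and the summed linear values of all 11 were 222, 231 and 225. The endoderm factor Gata6 measured 4.67, 5.20 and 4.82, and another of its probe sets 4.33, 5.23 and 4.77, a difference of 0.90 with BMP4. The neural factor Pax6 measured 3.84, 3.48 and 3.84. The part of these markers in the differences given here was not tested. Of 7 Sertoli and other gonadal markers, 3 were above the floor, and the median over all 7 was 3.38 on each array. Id2, a direct BMP target that checks the labels, measured 8.90 with BMP4, 4.80 untreated and 4.31 with noggin. Its other probe set above the floor measured 8.85, 4.14 and 4.09 in that order. The noggin difference of Id2 was thus −0.49 by the representative probe set and −0.05 by the other. Id1 and Id3 had differences of 2.76 and 3.58 with BMP4 and of −0.19 and −0.26 with noggin.

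All 12 probe sets of the germ cell genes were above the floor on every array, the lowest value being 4.67 and the highest 9.70. On the BMP4 array 8 of the 9 genes lay below their untreated value, where 35.6% of all 11594 genes did, and 1, Tfap2c, lay above it, where 24.8% did. Taf7l, Dazl, Sycp3 and Mael were at least 1.2-fold lower, as were 2.25% of all genes, and for Dazl this held in 1 of its 2 probe sets. Ddx4, Dnd1, Dppa3 and Prdm1 were lower by less than 1.2-fold. Tfap2c was at least 1.2-fold higher, as were 1.59% of all genes. On the noggin array none of the 9 differed 1.2-fold from untreated cells, where 1.9% of all genes were lower and 0.897% higher by as much. In such bulk RNA, a smaller share of cells that express a gene and less RNA per cell cannot be told apart.

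**Figure D1:**
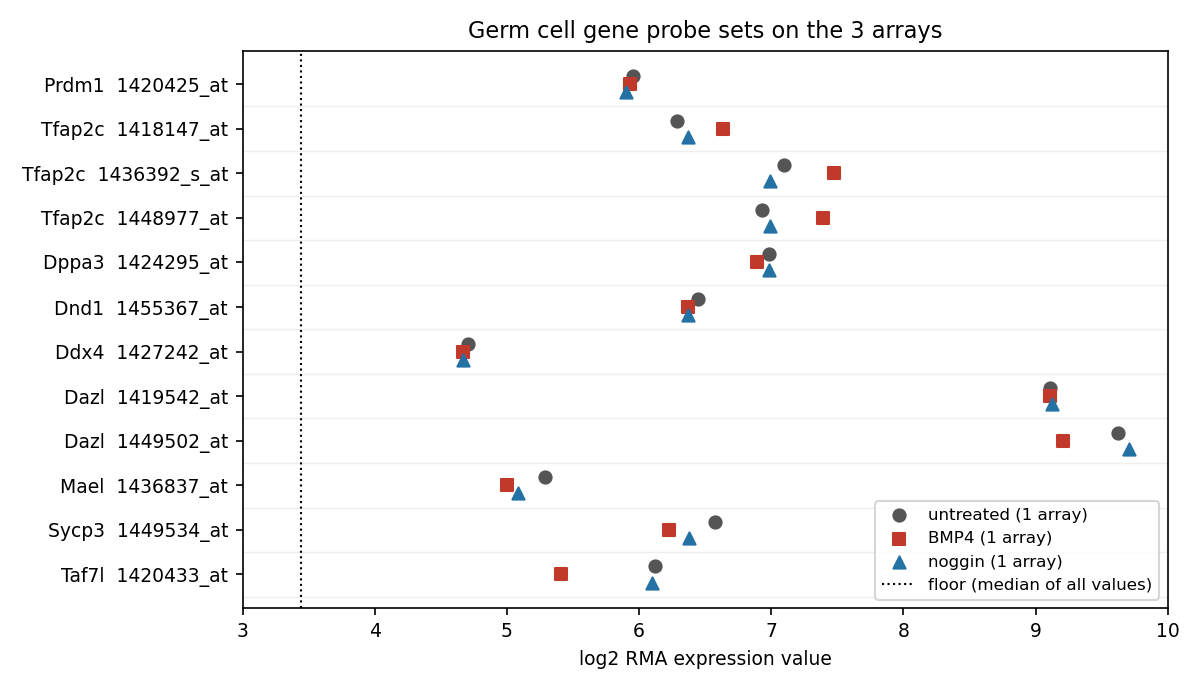
Log2 RMA value (horizontal axis) of each of the 12 probe sets of the 9 measured germ cell genes, with circles for the untreated array, squares for BMP4 and triangles for noggin, 1 array each. The dotted line is the floor of 3.44; the squares stand to the right of the other symbols in all 3 probe sets of Tfap2c and to the left in Taf7l, Sycp3, Mael, Dppa3 and 1 of the 2 probe sets of Dazl.

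The transcription factors of germ cell specification differed from one another. Prdm1, a repressor that silences the somatic programme in germ cell precursors, measured 5.96 in untreated cells, 5.93 with BMP4 and 5.90 with noggin. These values lay within 0.06 of each other, less than the within-gene SD of either comparison. Tfap2c, the AP-2 gamma factor that acts alongside Prdm1, had 3 probe sets, and each was highest on the BMP4 array. The representative one measured 7.10 untreated, 7.48 with BMP4 and 6.99 with noggin. The second measured 6.93, 7.39 and 6.99, and the other 6.29, 6.64 and 6.37, in the same order. The difference between BMP4 and untreated was therefore 0.38, 0.46 and 0.35, or 1.30-, 1.38- and 1.27-fold. That agreement between probe sets concerns the same pair of RNA samples and is not a replicate of the treatment. Against untreated cells, noggin gave −0.11 for the representative probe set and 0.06 and 0.08 for the others, so the 3 did not share a direction. From the top, Tfap2c ranked 82 of 11594 genes in its difference between BMP4 and untreated.

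Dppa3 (Stella), which marks primordial germ cells and protects DNA methylation in the early embryo, measured 6.99 in untreated cells, 6.89 with BMP4 and 6.99 with noggin. Its difference of −0.09 with BMP4 was smaller than the within-gene SD.

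Among the RNA-binding proteins, Dnd1, needed for the survival of germ cells, measured 6.44 untreated and 6.37 on both treated arrays. Ddx4, the Vasa RNA helicase of germ granules, measured 4.70 untreated and 4.67 on both. Either gene thus had the same value with BMP4 and with noggin, and their differences from untreated cells, −0.07 and −0.03, were under the within-gene SD. Dazl, which binds mRNAs and controls their translation in germ cells, had 2 probe sets that did not give the same picture. The representative one measured 9.62 untreated, 9.21 with BMP4 and 9.70 with noggin, a 1.33-fold lower value with BMP4. The other measured 9.11 untreated, 9.11 with BMP4 and 9.12 with noggin, a difference of 0.00 with BMP4. Averaged over both, the difference was −0.21, which no longer reached 1.2-fold. The lower value of Dazl on the BMP4 array thus rests on 1 probe set.

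Sycp3, a component of the axial elements of the synaptonemal complex that pairs chromosomes in meiosis, measured 6.57 untreated, 6.22 with BMP4 and 6.38 with noggin. Both treated arrays lay below the untreated one, by 0.35 and 0.19. Mael (Maelstrom), a factor of the piRNA pathway that silences transposons, measured 5.28 untreated, 5.00 with BMP4 and 5.09 with noggin, with differences of −0.28 and −0.20. For both genes the untreated array was the highest of the 3. The comparisons with BMP4 and with noggin share the untreated array, so a high value there lowers both differences. Between the treated arrays themselves, Sycp3 differed by −0.15 and Mael by −0.09 (BMP4 minus noggin), less than the within-gene SD of 0.16 for that comparison.

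Taf7l, the germ cell paralogue of the TFIID subunit Taf7, measured 6.12 in untreated cells, 5.41 with BMP4 and 6.10 with noggin. The untreated and noggin values were 0.02 apart, and the BMP4 value was 1.64-fold below the untreated one. It ranked 4 from the lowest among the 11594 genes in the difference between BMP4 and untreated, and 9 from the lowest in the difference between BMP4 and noggin (−0.69). Taf7l had 1 probe set, so no second measurement of the gene was made. Taf7 itself, the ubiquitous form, measured 7.97, 8.11 and 7.93 on the untreated, BMP4 and noggin arrays, a difference of 0.13 with BMP4; its other probe sets gave 0.02 and 0.00. Of 11 listed paralogues and partners of the germ cell genes 8 were above the floor. With BMP4 2 of them, Prdm14 and Pum2, lay below their untreated value and 2 above, where 35.6% and 24.8% of all genes did. Prdm14, counted again among the specification genes, was the 1 that was at least 1.2-fold lower, at −0.28, as were 2.25% of all genes. Among the 8, Ddx3x, a ubiquitous DEAD-box relative of Ddx4, measured 11.14, 11.25 and 11.19 on the untreated, BMP4 and noggin arrays. The RNA-binding protein gene Pum2 measured 8.56, 8.48 and 8.58. Its other probe sets above the floor gave −0.21 and 0.00 with BMP4 and 0.25 and −0.01 with noggin.

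Counts over the set were read against those over all genes. With BMP4 the median difference of the 9 germ cell genes was −0.09 and that of all 11594 genes 0.00, many of the latter being equal to 6 decimals. The 4 genes at least 1.2-fold lower became 3 when probe sets were averaged, as Dazl then fell short, and 1.13% of all genes were as much lower on that reckoning. Taf7l alone was at least 1.5-fold lower, as were 0.0518% of all genes, and no germ cell gene differed 2-fold. With noggin, 7 of the 9 lay below 0 and 1, Dazl, above, with Dppa3 equal and a median of −0.06, against 36.1% below and 26.8% above among all genes. The differences with noggin ran from −0.20 for Mael to 0.08 for Dazl.

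**Figure D2:**
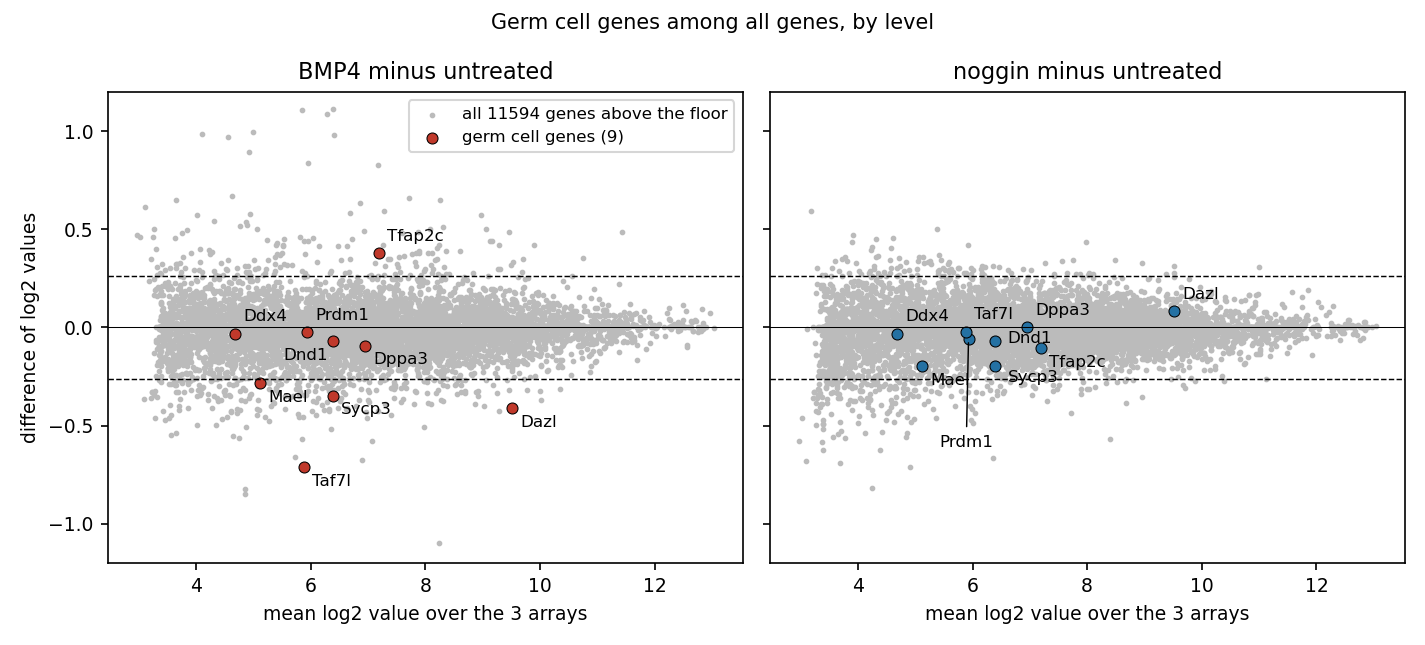
Difference of log2 values from the untreated array (vertical axis) against the mean log2 value over the 3 arrays (horizontal axis), with BMP4 on the left and noggin on the right; grey points are the 11594 genes above the floor, coloured points the 9 germ cell genes, dashed lines 1.2-fold. Taf7l, Dazl, Sycp3 and Mael lie below the lower line and Tfap2c above the upper line with BMP4, and all 9 lie between the lines with noggin; 8 genes with larger BMP4 differences fall outside the axis.

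Set directly against noggin, which asks for the contrast between added and blocked BMP, the BMP4 array had 5 of the 9 genes below 0, 2 above and 2 equal, with a median of −0.09; among all genes 34.1% were below and 33.1% above. Taf7l at −0.69 and the representative probe set of Dazl at −0.50 were at least 1.2-fold lower, against 3.26% of all genes. The other probe set of Dazl gave −0.01 and the average of both −0.25, so that with averaged probe sets 1 gene, Taf7l, was 1.2-fold lower. Taf7l was also at least 1.5-fold lower, against 0.138%. Tfap2c was at least 1.2-fold higher, at 0.49, against 3.37%, and its other probe sets gave 0.40 and 0.27. Dnd1 and Ddx4 were equal, and Prdm1 was at 0.03. This comparison uses the same BMP4 array as the comparison with untreated cells.

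Other germ cell genes were taken from 3 lists. Of 18 further specification genes, 14 were above the floor, and with BMP4 9 of these lay below the untreated value and 2 above, with a median of −0.04. Of all genes above the floor, 35.6% lay below, 24.8% above and 2.25% were at least 1.2-fold lower. Prdm14, the partner of Prdm1 in specification, was the 1 of the 14 that was 1.2-fold lower, at 6.84 against 7.12, and measured 7.07 with noggin. Dppa5a (12.83 untreated) and Dppa2 (10.80 untreated), genes of pluripotent and early germ cells, differed by −0.01 and 0.00 with BMP4. With noggin, the RNA-binding protein gene Lin28a measured 8.04 against 8.61 untreated and 8.53 with BMP4. Its other probe set gave a noggin difference of 0.08, opposite in direction.

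Of 25 further meiosis genes, 18 were above the floor. With BMP4 9 lay below the untreated value, 1 above and 8 at it, and their median difference was −0.01. Of all genes above the floor, 35.6% lay below and 24.8% above. Stra8, which gates entry into meiosis, measured 8.46 on all 3 arrays, and Syce2, of the central element of the synaptonemal complex, measured 10.10, 10.04 and 10.03 on the untreated, BMP4 and noggin arrays. Tex11, a meiotic recombination factor, measured 3.75, 3.48 and 4.11 in that order, near the floor. Hormad1, a chromosome axis protein, measured 6.04, 6.04 and 5.75, and the meiotic cohesin gene Smc1b 5.81, 5.68 and 5.97. Sycp3 was thus at least 1.2-fold lower with BMP4, while of these 18 genes 1, Tex11, was, and 2.25% of all genes were.

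Of 23 genes of the piRNA pathway and of germ granules, 17 were above the floor. With BMP4 9 lay below the untreated value, 2 above and 6 at it, with a median of −0.02. Tex15, which takes part in transposon silencing and meiosis, measured 6.54 untreated, 6.13 with BMP4 and 6.78 with noggin, so that it lay on opposite sides of the untreated value. Gtsf1, a zinc finger protein that assists piRNA-directed silencing, measured 7.77, 7.50 and 7.75 in the same order, and its other probe set gave −0.13 with BMP4. The RNA helicase gene Mov10l1 measured 4.58, 4.65 and 4.93, and Dnmt3l, the cofactor of de novo DNA methylation, 10.50, 10.57 and 10.37. Over the 3 lists together, 27 of 49 genes lay below the untreated value with BMP4 and 5 above, 4 of them at least 1.2-fold lower and 0 at least 1.2-fold higher. With noggin the counts were 21 below and 14 above, with 2 at least 1.2-fold lower and 2 higher. Of all genes above the floor, 35.6% lay below and 24.8% above with BMP4, with 2.25% at least 1.2-fold lower and 1.59% higher. With noggin these shares were 36.1%, 26.8%, 1.9% and 0.897%.

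**Figure D3:**
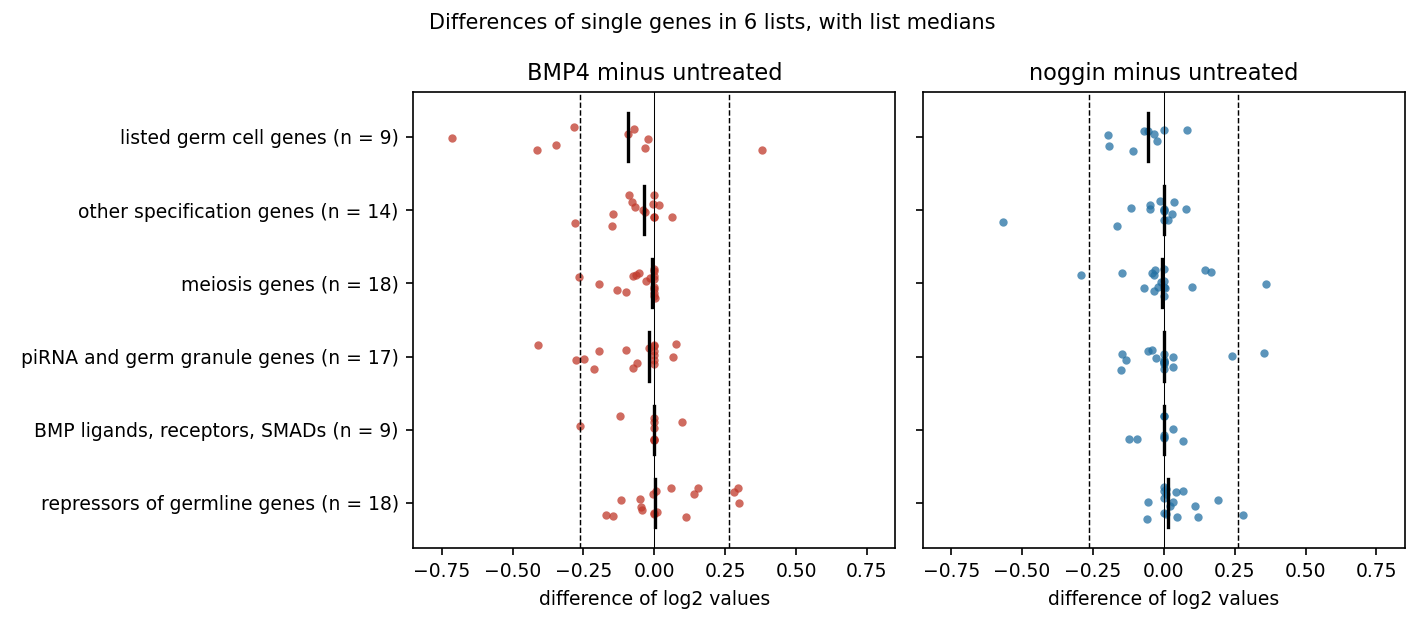
Difference of log2 values from the untreated array (horizontal axis) for each gene above the floor in 6 lists, with BMP4 on the left and noggin on the right; points are genes, spread vertically for legibility, black bars list medians and dashed lines 1.2-fold. The medians with BMP4 are −0.09 for the listed germ cell genes and between −0.04 and 0.00 for the 5 other lists.

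CACGTG was also found in the window of 14 of 53 genes of these 3 lists that the promoter table holds, 26.4%, against 10.2% of genes above the floor, 10.5% of genes with a window of at least 12 CpG pairs and 6.86% of all genes in the table. By list these were 9 of 19 piRNA and germ granule genes, 5 of 21 meiosis genes and 0 of 13 specification genes. Of 961 genes above the floor with CACGTG in a window, 35.6% were lower with BMP4 and 26, or 2.71%, were at least 1.2-fold lower; Taf7l, Sycp3 and Mael are 3 of these 26. Of 8438 with a window and no match, 36.1% were lower and 184, or 2.18%, were at least 1.2-fold lower. At least 1.5-fold lower were 2 of the 961 genes with the motif, 1 of them Taf7l, and 3 of the 8438 without. Whether these shares differ was not tested.

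The repressors of germline genes were measured on the same arrays, and all 18 listed genes were above the floor. With BMP4 7 lay below the untreated value and 9 above, where 35.6% and 24.8% of all genes did. The median of the list was 0.00, and 3 of the 18 were at least 1.2-fold higher, as were 1.59% of all genes. With noggin 2 lay below the untreated value and 12 above, against 36.1% and 26.8% of all genes. The median of the list was then 0.01, and 1, Mga, was at least 1.2-fold higher, as were 0.897% of all genes. The 3 with BMP4 were Max, the partner of Mga, at 8.32 against 8.03 untreated, Uhrf1, which guides maintenance of DNA methylation, at 9.45 against 9.15, and Tet1, at 9.84 against 9.56. Tet1 oxidises 5-methylcytosine and is not a repressor of transcription in the plain sense of the list. The second probe set of Uhrf1 gave 0.53, whereas the probe sets of Tet1 above the floor gave 0.28, 0.25 and −0.02. For the DNA methyltransferase gene Dnmt3b, 1 probe set gave −0.37 with BMP4 and the representative one −0.04. On the noggin array Max measured 8.05, Uhrf1 9.19 and Tet1 9.67. Mga measured 7.55 untreated and with BMP4 and 7.83 with noggin, but another probe set of Mga of like level had the same value on all 3 arrays, and one near the floor gave 0.39 with BMP4. E2f6 measured 5.91, 5.86 and 5.91 on the untreated, BMP4 and noggin arrays, and Rnf2, the catalytic subunit of Polycomb complex 1, 9.71, 9.70 and 9.72. Atf7ip, a cofactor of the histone methyltransferase Setdb1, measured 7.52, 7.38 and 7.71 in the same order. Its other probe set above the floor measured 6.78, 6.72 and 6.77.

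Of 12 genes for the BMP ligands, receptors and SMADs that act in germ cell specification, 9 were above the floor. With BMP4 2 were lower, 1 higher and 6 equal, and none differed 1.2-fold by its representative probe set. Of all genes above the floor, 35.6% were lower and 24.8% higher with BMP4, 2.25% and 1.59% by at least 1.2-fold. With noggin 2 were lower, 2 higher and 5 equal, again with none past 1.2-fold. Among all genes 36.1% were then lower and 26.8% higher, 1.9% and 0.897% by at least 1.2-fold. With each probe set taken as a unit, 2 were at least 1.2-fold higher with BMP4, as were 3.39% of all 20122 probe sets above the floor. These were 1 of the BMP receptor gene Bmpr1a at 0.33 and 1 of Smad5 at 0.34, the latter close to the floor. Bmp4 measured 8.50 untreated, 8.24 with BMP4 and 8.40 with noggin. Smad1, which carries the BMP signal to the nucleus, measured 7.15 untreated and 7.03 on both treated arrays, and its other probe sets gave 0.20 and −0.09 with BMP4, so they did not share a direction. Smad4, the shared partner of receptor-activated SMADs, measured 9.33 on each array, while its other probe sets gave −0.17 and −0.18 with BMP4.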

How the data were processed

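The authors deposited log2 values, 1 per probe set and array, made with RMA (background correction, quantile normalization between arrays, median polish), per the submitters' processing notes. The version, the settings and the genome build are not given in the sources used here. Quantile normalization hides any general shift in RNA content, and median polish over 3 arrays gives many ties: 26.1% of probe sets had equal values on all arrays to 6 decimals, so small differences can appear as 0.00.

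Names came from the platform annotation (34945 probe sets with 1 symbol); the Entrez identifiers of the 9 measured germ cell genes matched RefSeq. Differences were taken between arrays without further scaling. Counts used limits of 1.2-, 1.5- and 2-fold. The counting was tested on simulated data. Python 3.11.15, pandas 2.3.3 and numpy 2.4.6 were used. There is no read depth; the number of arrays, 1 a condition, limits the precision and allows no p-value or SD between samples.

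The members, lists and limits were chosen with earlier results of these data known. Beyond the members, the text names list genes past 1.2-fold in some comparison, those with the highest values of a list, paralogues and Id genes; E2f6, Smad1, Smad5 and Bmpr1a were added after their values were seen, as were the remarks on further probe sets. Alternatives were other floors, the mean over probe sets, plain-suffix probe sets, median-centred and loess-corrected differences (span 0.3), probe sets as units and other fold limits.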

Additional observations from a re-analysis of the deposited data

How the results depend on the processing

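No paired analysis was possible because each condition had 1 array. Values were compared with a yardstick of 1 within-gene SD of probe sets for differences and 1.5 times for counts. Of 153 differences of single germ cell genes under the alternatives, 149 moved by less than that SD and 0 changed sign past 1.2-fold. Most of these could not have moved. A floor leaves a gene's own difference unchanged, and median-centring subtracted 0.00. Averaged or plain-suffix probe sets can change only Dazl and Tfap2c, which had more than 1 probe set. The count of 149 therefore says little about how firm the differences are. Taf7l, Sycp3 and Mael had 1 probe set each, so only the loess correction could move their differences with BMP4. It moved them by under 0.01. Mael was left out with the floor at the 75th percentile. The 4 differences that moved by more than the SD were those of Dazl with BMP4, −0.21 against untreated and −0.25 against noggin when its probe sets were averaged, and that of Tfap2c with noggin, 0.01 when averaged and 0.06 with plain-suffix probe sets. The median difference of the germ cell genes stayed below 0 throughout, between −0.22 and −0.05 with BMP4, between −0.06 and −0.03 with noggin and between −0.12 and −0.01 for BMP4 against noggin. With the floor at the 75th percentile, which leaves fewer genes, 5 germ cell genes lay below 0 with BMP4 and 4 with noggin. With averaged probe sets 1 was at least 1.2-fold lower for BMP4 against noggin, and with probe sets as units 3 were at least 1.2-fold higher with BMP4 against either array, all of them of Tfap2c. Past a limit of 1.2-fold in either direction lay 5 with BMP4, and past 2-fold 0. At least 1.2-fold higher with BMP4 were 184 of 11594 genes, 288 of 18193 with no floor, 100 of 6903 with the floor at the 75th percentile and 682 of 20122 probe sets, or 1.59%, 1.58%, 1.45% and 3.39%. At least 1.2-fold lower with BMP4 were 261, and 130, 121 of 10708 and 422 with the higher floor, averaged probe sets and probe sets as units, or 2.25%, 1.88%, 1.13% and 2.1%. At least 1.5-fold lower, the background for Taf7l, were 6, with 3 at the higher floor and 12 probe sets. With noggin 220 genes were at least 1.2-fold lower and 1291 with no floor (1.9% and 7.1%), and between BMP4 and noggin 391 were at least 1.2-fold higher and 1443 with no floor (3.37% and 7.93%). The cause of these changes was not tested where the setting itself does not give it.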

Other observations

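Further germline-expressed gene families on these arrays were looked up by symbol after other values had been seen, so they are given as values. Of the X-linked Rhox homeobox cluster, which is active in germ cells and placenta, 4 genes were above the floor. Rhox5 measured 10.86 on all 3 arrays. Rhox13 measured 9.03 untreated, 8.71 with BMP4 and 9.02 with noggin, so its BMP4 array stood apart in the way that of Taf7l did, at a smaller difference of −0.32. Rhox9 measured 4.46 untreated and 4.09 on both treated arrays, and Rhox6 differed by −0.11 with BMP4.

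Of the Tex19 pair, which restrains transposons in germ and placental cells, Tex19.1 measured 9.82 untreated and with BMP4 and 9.89 with noggin. Tex19.2 measured 5.10, 4.85 and 5.22 on the untreated, BMP4 and noggin arrays. Of the cancer-testis family Magea, 4 genes were above the floor, and their BMP4 differences ran from −0.24 for Magea5 to 0.10 for Magea7-ps.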
